A study of Homo sapiens with 4 samples.

Results

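The endoplasmic reticulum (ER) chaperones and the genes of the unfolded protein response (UPR) form a set of 35 genes, chosen as a list of symbols for ER chaperones, disulfide isomerases, ER-associated degradation factors and the sensors ATF6, ERN1 and XBP1. All 35 symbols matched an Ensembl ID in the count tables, out of 57773 listed IDs, and 34 of the 35 had enough counts to be tested, as did 16090 genes in all. MIA-PaCa2 is an established human pancreatic cancer cell line, and AMG510 (sotorasib) is a small-molecule cancer drug. The study compared 2 untreated populations of this line with 2 populations that had been taken through rising doses of AMG510 over 2 months and grew in 5 µM of the drug, with 1 polyA RNA library from each population. The labels do not say whether drug was present when the resistant cells were collected. For resistant replicate 2 the drug is entered as AMG511 in the treatment tag and as AMG510 in the title, and it was treated as resistant to AMG510.

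Proteins destined for secretion or for the cell's membranes enter the ER through the Sec61 channel, are folded there by chaperones and disulfide isomerases, and leave in COPII-coated vesicles. When unfolded proteins accumulate, the ER-membrane sensors IRE1 (gene ERN1), ATF6 and PERK start the unfolded protein response: IRE1 splices the XBP1 mRNA into one that encodes an active transcription factor, ATF6 is cleaved to release another, and PERK phosphorylates the initiation factor eIF2α, which slows translation and raises ATF4. XBP1 and ATF6 switch on chaperone and degradation genes, and proteins that cannot be folded are sent back to the cytosol and destroyed, a route called ER-associated degradation (ERAD). Pancreatic exocrine cells, which secrete large amounts of enzyme, are a textbook case of a tissue that depends on this machinery. Splicing of XBP1, cleavage of ATF6 and phosphorylation of PERK are not read by a gene count, so the values below are levels of mRNA only.

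The promoters of many of these genes carry a short DNA element to which active ATF6 and XBP1 bind, and 6 of them are shown because the mRNAs behind them behaved differently: 4 rose, 1 fell and 1 did not pass the test. Each line gives the 200 bases before the RefSeq transcription start (RefSeq, GRCh38.p14), 5′ to 3′ on the gene's strand, and the capitals mark the outer parts of an exact match to the ER stress response element (CCAAT and CCACG with 9 bases of any kind between them, or ATTGG and CCACG with 1 base between them, on either strand).
HSPA5, chr9:125241344-125241543, minus strand: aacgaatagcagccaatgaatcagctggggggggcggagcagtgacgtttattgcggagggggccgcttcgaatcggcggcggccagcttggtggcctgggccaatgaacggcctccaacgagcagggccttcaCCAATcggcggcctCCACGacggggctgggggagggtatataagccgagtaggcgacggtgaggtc
HSP90B1, chr12:103930210-103930409, plus strand: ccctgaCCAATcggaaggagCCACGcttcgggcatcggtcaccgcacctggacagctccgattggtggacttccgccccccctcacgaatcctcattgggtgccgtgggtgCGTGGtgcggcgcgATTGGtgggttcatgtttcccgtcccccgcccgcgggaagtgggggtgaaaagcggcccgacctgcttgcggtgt
XBP1, chr22:28800570-28800769, minus strand: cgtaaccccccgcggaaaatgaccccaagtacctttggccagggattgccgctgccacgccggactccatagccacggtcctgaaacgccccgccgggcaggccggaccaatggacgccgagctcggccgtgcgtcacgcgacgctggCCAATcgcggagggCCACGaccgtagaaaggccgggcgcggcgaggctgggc
HERPUD1, chr16:56931942-56932141, plus strand: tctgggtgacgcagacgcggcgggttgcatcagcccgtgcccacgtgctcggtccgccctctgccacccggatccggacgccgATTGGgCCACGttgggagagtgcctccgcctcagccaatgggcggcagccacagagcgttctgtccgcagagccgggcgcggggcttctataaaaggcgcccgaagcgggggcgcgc
SDF2L1, chr22:21642102-21642301, plus strand: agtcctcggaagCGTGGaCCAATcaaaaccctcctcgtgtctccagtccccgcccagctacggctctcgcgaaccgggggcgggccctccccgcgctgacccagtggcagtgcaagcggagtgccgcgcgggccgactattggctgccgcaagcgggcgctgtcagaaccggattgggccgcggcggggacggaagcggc
CRELD2, chr22:49918434-49918633, plus strand: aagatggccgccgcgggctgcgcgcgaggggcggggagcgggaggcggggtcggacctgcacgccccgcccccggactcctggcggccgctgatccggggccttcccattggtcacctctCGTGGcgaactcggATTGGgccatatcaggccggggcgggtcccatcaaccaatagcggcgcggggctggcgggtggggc
The match lies 66 to 48 bases before the start in HSPA5, 52 to 34 in XBP1, 117 to 107 in HERPUD1, 188 to 178 in SDF2L1 and 80 to 62 in CRELD2. HSP90B1 has a pair of matches, 194 to 176 and 89 to 71 bases before its start. SDF2L1, the gene whose mRNA fell, and HERPUD1, the gene with the largest rise among the 34, both carry the form with 1 base between the outer parts.

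The libraries were similar in depth, with totals of 30146559 to 38052558 expected counts, and values are given as CPM, the expected count scaled to the TMM-adjusted size of the library. Of the 7 epithelial and line markers, KRT8, KRT18 and KRT19 were abundant, EPCAM (1.33 to 2.09 CPM), CDH1 (0.622 to 1.21 CPM) and KRT7 (0.148 to 0.401 CPM) were low, and CDKN2A had 0 counts in every library. The markers summed, almost wholly from KRT8 and KRT18, whose exons overlap, to 3956 and 5635 CPM in the untreated and 2055 and 2620 CPM in the resistant libraries, with 2 of 5 tested called lower and 0 higher. The 5 markers of acinar and islet cells summed to 0 CPM in the untreated libraries and to at most 0.0592 CPM in the resistant ones. The 4 matched markers of blood and endothelial cells summed to 10.1 to 14.2 CPM in the untreated and 2.52 to 6.90 CPM in the resistant libraries, almost wholly from CD14 and CDH5. Of these 2, the only ones tested, CD14 was called lower. CDH5, at 5.28 and 0.711 CPM in resistant replicates 1 and 2, did not pass the test. The part of these differences in the results was not tested.

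Of the 34 tested genes, 16 were higher in the resistant libraries, 1 was lower and 17 did not pass the test (edgeR's quasi-likelihood test, 2 libraries against 2, Benjamini-Hochberg adjusted p below 0.05 over 16090 genes). The 16 higher genes were 47.1% of the 34, against 16.6% of all tested genes, and the 1 lower gene was 2.94%, against 17.4%. In either direction 34.0% of all tested genes were called. The median log2 fold change of the 34 was 0.54, with a range of -1.07 to 2.33, and that of all tested genes was -0.01. Summed over the set, the untreated libraries held 5592 and 5189 CPM and the resistant replicates 1 and 2 held 11907 and 8033 CPM. Both resistant libraries lay above both untreated ones for 21 of the 34 genes, where 34.6% of all tested genes did so, and below both for 6, where 36.3% did so, so that 7 overlapped. In all, 70.9% of tested genes had groups without overlap. In bulk RNA, a larger share of cells with high levels of these mRNAs and more mRNA in each cell cannot be told apart. With 1 library from each population, the p-values reflect how far the populations of a group differ.

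**Figure D1:**
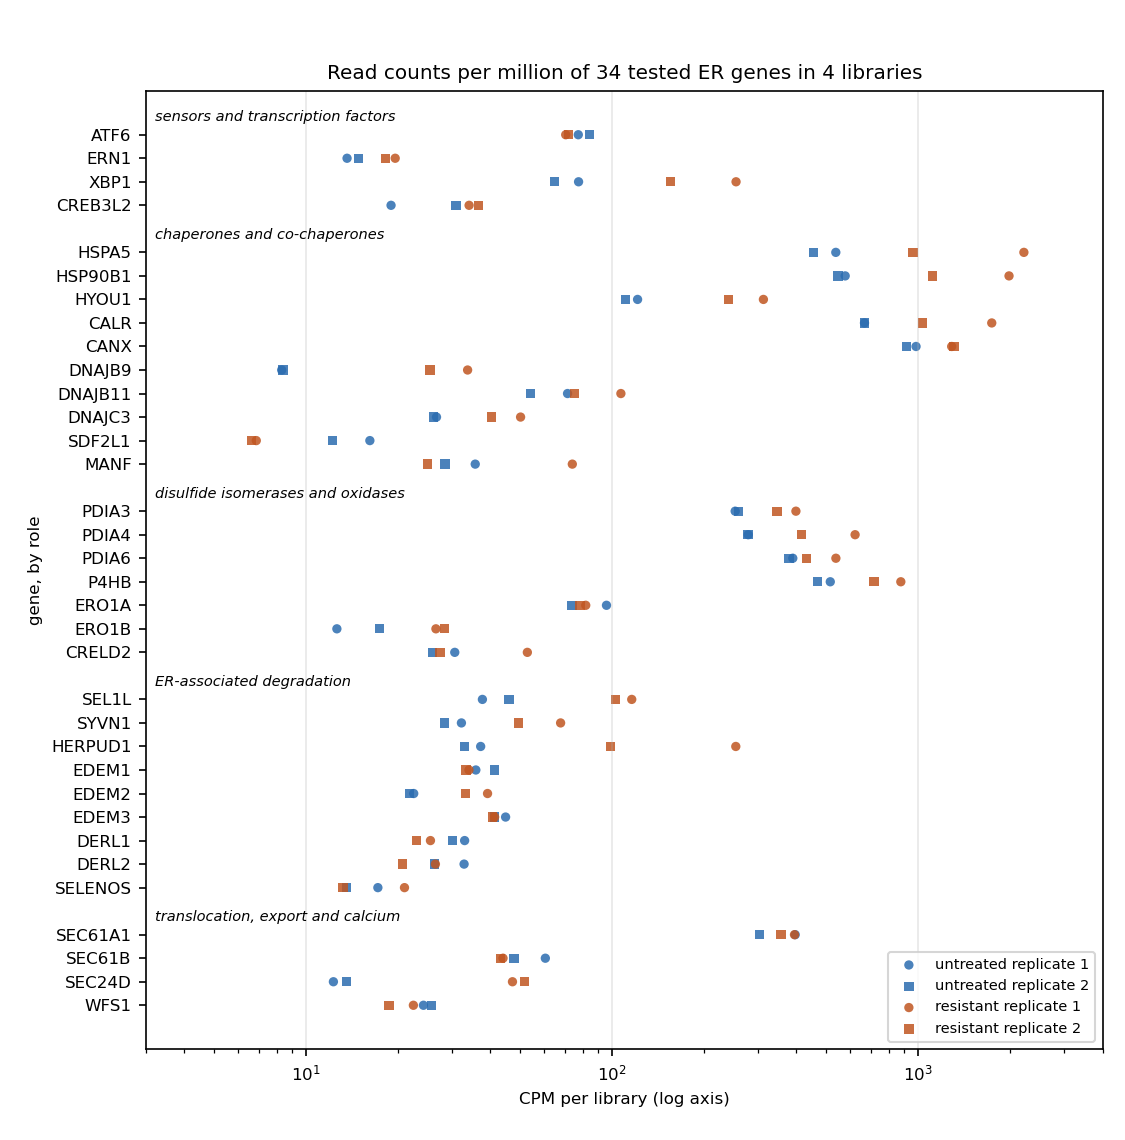
CPM of each of the 34 tested genes in each library on a log axis, grouped by role, with untreated libraries in blue and resistant ones in orange (circles, replicate 1; squares, replicate 2). The orange points of HSPA5, HSP90B1, CALR and HERPUD1 lie to the right of the blue ones and far from each other, whereas those of SDF2L1 lie to the left.

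Chaperones bind unfolded proteins and keep them from clumping. Of 10 tested chaperones and co-chaperones, 6 rose and 1 fell (60% and 10%, against 16.6% and 17.4% of all tested genes). The other 3 did not pass the test, and the median log2 fold change of the 10 was 0.92. The summed level of the 10 was 3044 and 2824 CPM in the untreated libraries and 7801 and 4827 CPM in resistant replicates 1 and 2. HSPA5 (BiP, ENSG00000044574, chromosome 9), the HSP70 chaperone of the ER lumen that also holds the sensors inactive, stood at 538 and 454 CPM in untreated replicates 1 and 2 and at 2214 and 961 CPM in resistant replicates 1 and 2. Both resistant values lay above both untreated ones, and the resistant pair were 2.30-fold apart. Its mean went from 496 ± 59.4 (SD, n = 2) to 1587 ± 886 CPM, and the log2 fold change was 1.68 (adjusted p = 0.0244, SE 0.40). With 1 untreated library left out the call was lost, at log2 fold changes of 1.83 without replicate 1 (adjusted p = 0.183) and 1.55 without replicate 2 (adjusted p = 0.222), while without resistant replicate 1 it held at a log2 fold change of 0.97.

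HSP90B1 (GRP94, ENSG00000166598, chromosome 12), the HSP90 of the ER, was at 577 and 547 CPM in the untreated and 1979.6 and 1112 CPM in the resistant libraries. Its log2 fold change was 1.46 (adjusted p = 0.00316, SE 0.26), and the call held under every setting tried. HYOU1 (GRP170, ENSG00000149428, chromosome 11), a large HSP70 relative that exchanges nucleotide on BiP, was at 121 and 110.2 CPM and then at 312 and 239 CPM. It rose by 1.25 on the log2 scale (adjusted p = 7.18e-04, SE 0.18). Chromosome 11 as a whole stood higher, with a median log2 fold change of 0.42 over 738 protein-coding genes, and the part of this in the changes of HYOU1 and of SYVN1, on the same chromosome, was not tested.

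The lectin chaperones CALR and CANX hold newly made glycoproteins until they fold. CALR (ENSG00000179218, chromosome 19), the soluble one, was at 667 CPM in both untreated libraries and at 1738 and 1035 CPM in the resistant ones, a log2 fold change of 1.06 (adjusted p = 0.0076, SE 0.23). Its call was lost without untreated replicate 1 (adjusted p = 0.0538) and without resistant replicate 1 (log2 fold change 0.65, adjusted p = 0.0667). CANX, its membrane-bound relative, was at 983 and 917 CPM and at 1286 and 1307 CPM, with a log2 fold change of 0.45 (adjusted p = 0.0522, SE 0.16). Its groups did not overlap, and it fell just outside the threshold: with upper-quartile scaling, the stricter filter, DESeq2 or limma-voom it was called (adjusted p between 0.0221 and 0.0430). CANX lies on chromosome 5, where the median over protein-coding genes was -0.41.

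Among the DNAJ co-chaperones, which pass clients to BiP, DNAJB9 (ERdj4, ENSG00000128590) had the largest change. It was at 8.31 and 8.39 CPM in the untreated and 33.7 and 25.3 CPM in the resistant libraries, a log2 fold change of 1.82 (adjusted p = 2.81e-04, SE 0.22). DNAJC3 (p58IPK, ENSG00000102580), which also inhibits PERK, was at 26.6 and 26 CPM and at 50.2 and 40.2 CPM (log2 fold change 0.78, adjusted p = 0.00833, SE 0.18). DNAJB11 (ERdj3) was at 71.4 and 54.1 CPM and at 107 and 75.2 CPM, and its log2 fold change of 0.53 did not pass the test (adjusted p = 0.0697, SE 0.21). It was called with no filter on low counts (adjusted p = 0.0153), without untreated replicate 1 (0.0487) and without resistant replicate 2 (0.0073).

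SDF2L1 (ENSG00000128228, chromosome 22), a partner of DNAJB11 in the BiP chaperone cycle and itself known as a gene of the stress response, was the exception. It was at 16.1 and 12.2 CPM in the untreated libraries and at 6.87 and 6.63 CPM in the resistant ones, so that both resistant values lay below both untreated ones and close together. It fell by 1.07 on the log2 scale (adjusted p = 0.00987, SE 0.26), and the call was lost without untreated replicate 1 (log2 fold change -0.83, adjusted p = 0.101). MANF, a secreted ER protein that binds BiP, split the resistant libraries: it was at 35.7 and 28.4 CPM in the untreated, 74.0 CPM in resistant replicate 1 and 24.9 CPM in resistant replicate 2. The groups overlapped, and its log2 fold change of 0.63 had an SE of 0.55 (adjusted p = 0.444). Without resistant replicate 2 it was called, at 1.21 (adjusted p = 7.09e-05), and without resistant replicate 1 it stood at -0.35.

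**Figure D2:**
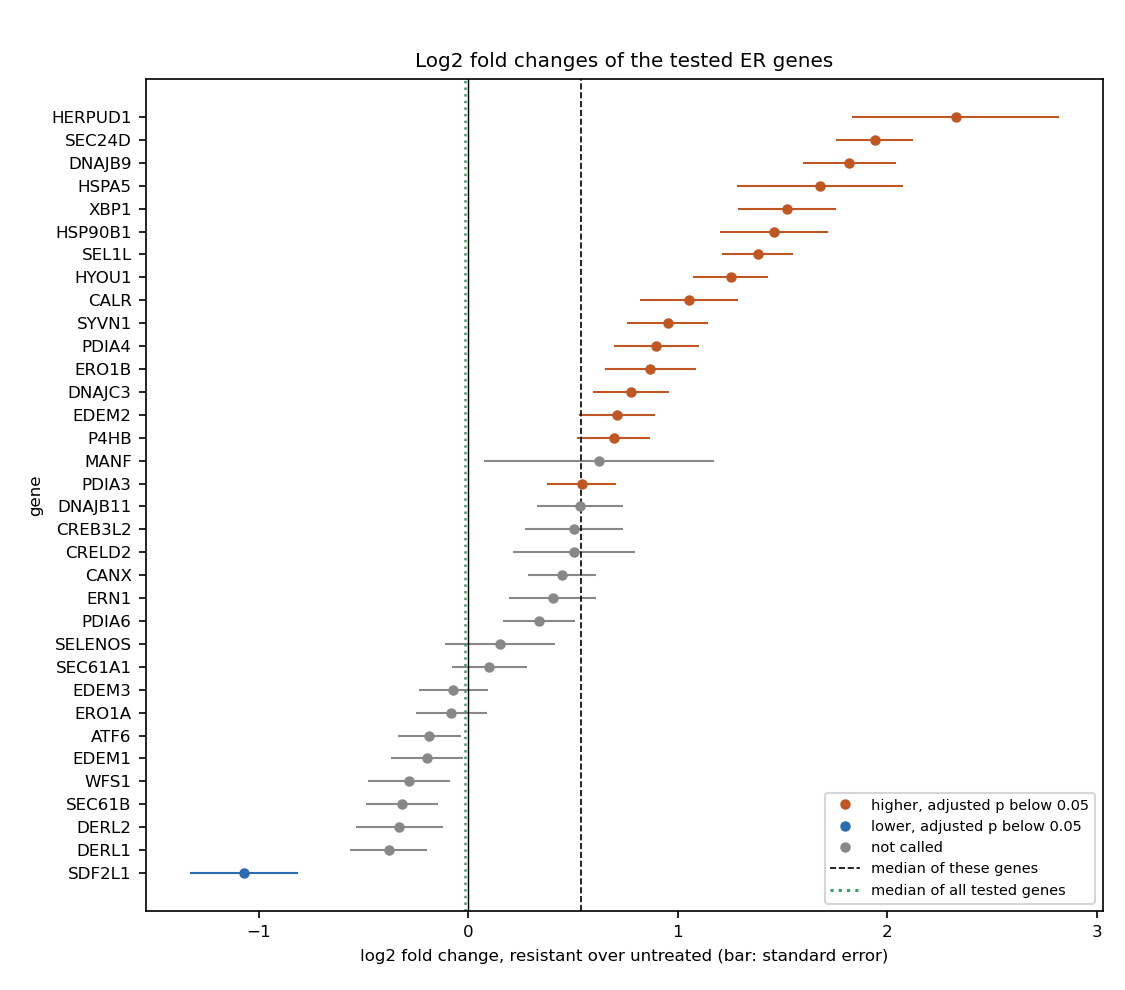
Log2 fold change of each of the 34 tested genes, resistant over untreated (points), with its standard error (bars), and the medians of the 34 genes (dashed, 0.54) and of all tested genes (dotted, -0.01). HERPUD1 is at the top at 2.33, SDF2L1 at the bottom at -1.07, and MANF and HERPUD1 have the longest bars.

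Disulfide bonds are formed by the protein disulfide isomerases, which are recharged by the ERO1 oxidases. Among 7 tested genes, 4 rose (57.1%, against 16.6% of all tested genes), none fell (against 17.4%) and 3 missed the threshold. The 7 had a median log2 fold change of 0.54. Their summed level was 1574 and 1499 CPM in the untreated and 2596 and 2042 CPM in the resistant libraries. PDIA4 (ENSG00000155660) was at 278 CPM in both untreated libraries and at 622 and 415 CPM in the resistant ones (log2 fold change 0.90, adjusted p = 0.00735, SE 0.20). P4HB (PDI itself, ENSG00000185624), also a subunit of the collagen prolyl hydroxylase, was at 516 and 468 CPM and at 877 and 716 CPM (log2 fold change 0.70, adjusted p = 0.0116, SE 0.17). Both sets of values lay apart by group, and both calls were lost without resistant replicate 1 (adjusted p = 0.0759 for PDIA4 and 0.117 for P4HB), that of P4HB also without untreated replicate 2 (0.0668). PDIA3 (ERp57, ENSG00000167004), the isomerase that works with CALR and CANX, was at 252 and 258 CPM and at 398 and 345 CPM, with a smaller change (log2 fold change 0.54, adjusted p = 0.0262, SE 0.16). Its call was lost when untreated replicate 1, untreated replicate 2 or resistant replicate 1 was left out (adjusted p = 0.116, 0.0828 and 0.197), and it has a near-identical pseudogene, PDIA3P1, that could share its reads.

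PDIA6, an isomerase that also attenuates IRE1 signalling, was at 389 and 378 CPM and at 538 and 431 CPM, and its log2 fold change of 0.34 did not pass the test (adjusted p = 0.155, SE 0.17). The oxidases differed from each other in their values. ERO1B (ENSG00000086619) was at 12.6 and 17.4 CPM in the untreated and 26.5 and 28.3 CPM in the resistant libraries and rose by 0.87 on the log2 scale (adjusted p = 0.0114, SE 0.22), a call lost without untreated replicate 1 (0.0851). ERO1A, the more widely expressed oxidase, was at 95.7 and 73.9 CPM and at 81.9 and 78.5 CPM, with resistant values between the untreated ones and a log2 fold change of -0.08 (adjusted p = 0.745, SE 0.17). CRELD2, a secreted stress-response protein with isomerase-like activity, was at 30.6 and 25.8 CPM in the untreated, 52.8 CPM in resistant replicate 1 and 27.4 CPM in resistant replicate 2. Only resistant replicate 1 lay above the untreated range, and its log2 fold change of 0.51 did not pass the test (adjusted p = 0.215, SE 0.29). It was called with no filter on low counts (adjusted p = 0.0449) and without resistant replicate 2, at 0.90 (adjusted p = 0.0022).

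ERAD genes select misfolded proteins, move them out of the ER and mark them with ubiquitin. Among 9 tested of 10 listed, 4 rose (44.4%, against 16.6% of all tested genes), none fell (against 17.4%) and 5 missed the threshold. The median log2 fold change of the 9 was 0.15. The ligase SYVN1 (HRD1, ENSG00000162298) was at 32.1 and 28.3 CPM in the untreated and 67.8 and 49.3 CPM in the resistant libraries (log2 fold change 0.95, adjusted p = 0.00421, SE 0.19). SEL1L (ENSG00000071537), the adaptor that holds the ligase complex together, was at 37.6 and 46.0 CPM and at 116 and 102 CPM (log2 fold change 1.38, adjusted p = 2.82e-04, SE 0.17). HERPUD1 (ENSG00000051108, chromosome 16), a membrane protein that organises the same complex, was at 37.2 and 32.9 CPM in the untreated, 253 CPM in resistant replicate 1 and 98.5 CPM in resistant replicate 2. HERPUD1 had the largest fold of the 34.

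For HERPUD1 the mean went from 35 ± 2.98 (SD, n = 2) to 176 ± 109.5 CPM, and the log2 fold change was 2.33 (adjusted p = 0.0263, SE 0.49). Its call was lost when either untreated library was left out, at log2 fold changes of 2.44 and 2.23 (adjusted p = 0.318 and 0.328), and it was kept at 1.51 without resistant replicate 1. EDEM2 (ENSG00000088298), which trims mannose from misfolded glycoproteins, was at 22.4 and 21.7 CPM and at 39.1 and 33.2 CPM (log2 fold change 0.71, adjusted p = 0.0134, SE 0.18). That call was lost without untreated replicate 2 (0.0520) and without resistant replicate 1 (0.0649). On its chromosome 20 the median over protein-coding genes was -0.36.

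The remaining ERAD genes did not pass the test. EDEM1 was at 35.8 and 41.2 CPM and at 34 and 33.2 CPM (log2 fold change -0.20, adjusted p = 0.410), and EDEM3 was at 44.8 and 41.1 CPM and at 41.3 and 40.6 CPM (-0.07, adjusted p = 0.770). The Derlins form part of the exit channel: DERL1 was at 32.9 and 30 CPM and at 25.5 and 22.9 CPM (-0.38, adjusted p = 0.133), and DERL2 at 32.8 and 26.2 CPM and at 26.4 and 20.6 CPM (-0.33, adjusted p = 0.247). DERL3 had 0 counts in all 4 libraries, which allows at most 0.0801 to 0.104 CPM (3 counts per library). SELENOS, a selenoprotein that binds Derlins and the ATPase VCP, was at 17.1 and 13.5 CPM and at 20.9 and 13.2 CPM (0.15, adjusted p = 0.687). Values of DERL2, EDEM3 and SELENOS overlapped between the groups, whereas both resistant values of EDEM1 and DERL1 lay below both untreated ones.

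Among the sensors and the transcription factors only XBP1 passed the test, 1 of 4 tested (25%, against 16.6% of all tested genes called higher). XBP1 (ENSG00000100219, chromosome 22) was at 77.6 and 64.7 CPM in the untreated and 254 and 155 CPM in the resistant libraries, with no overlap. Its log2 fold change was 1.52 (adjusted p = 0.00155, SE 0.24), and the call held under every setting tried. The counts do not separate spliced from unspliced XBP1 mRNA. ERN1, the IRE1 sensor that splices it, was at 13.6 and 14.9 CPM and at 19.5 and 18.1 CPM, and its log2 fold change of 0.41 did not pass the test (adjusted p = 0.158, SE 0.21). ATF6 was at 77.4 and 84.5 CPM and at 70.5 and 72 CPM (log2 fold change -0.18, adjusted p = 0.374, SE 0.15). CREB3L2, a membrane-bound factor related to ATF6 that drives secretory genes, was at 18.9 and 30.8 CPM and at 34.1 and 36.6 CPM (0.51, adjusted p = 0.119, SE 0.23), and it was called with no filter on low counts (0.51, adjusted p = 0.0480) and without untreated replicate 2 (0.89, adjusted p = 0.0146). Chromosome 22 had a median log2 fold change of 0.46 over 329 protein-coding genes, and it holds XBP1, which rose, SDF2L1, which fell, CRELD2, which did not pass the test, and DERL3.

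Of the 4 tested genes of translocation, export and calcium handling, 1 rose (25%, against 16.6% of all tested genes). SEC24D (ENSG00000150961, chromosome 4), a cargo-selecting subunit of the COPII coat, was at 12.3 and 13.5 CPM in the untreated and 47.2 and 51.8 CPM in the resistant libraries. Its log2 fold change of 1.94 (adjusted p = 5.48e-05, SE 0.18) had the smallest adjusted p of the 34, and it was, with ERO1B, 1 of 2 called genes whose CPM was higher in resistant replicate 2 than in replicate 1. Neither tested subunit of the Sec61 channel passed the test: SEC61A1, the pore, was at 396 and 303 CPM and at 394 and 356 CPM (0.10, adjusted p = 0.698, SE 0.18), and SEC61B, a small subunit, was at 60.4 and 47.8 CPM and at 44 and 43.0 CPM (-0.32, adjusted p = 0.185, SE 0.17). WFS1, an ER membrane protein that regulates calcium and ATF6, was at 24.2 and 25.7 CPM and at 22.4 and 18.7 CPM (-0.28, adjusted p = 0.292, SE 0.20).

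The resistant libraries did not carry the pattern to the same extent. CPM was higher in resistant replicate 1 than in replicate 2 for 29 of the 34 genes (85.3%), against 49.1% of all tested genes, and higher in untreated replicate 1 than in untreated replicate 2 for 24 (70.6%), against 49.3%. The resistant pair were over 1.5-fold apart for 8 genes (23.5%), a share close to the 19.7% of all tested genes. The 8 were MANF (2.97-fold), HERPUD1 (2.57), HSPA5 (2.30), CRELD2 (1.93), HSP90B1 (1.78), CALR (1.68), XBP1 (1.64) and SELENOS (1.59), all higher in replicate 1. The untreated pair were that far apart for 1 gene (2.94%, against 19.2%). Set against the untreated mean, resistant replicate 1 was over 1.5-fold higher for 19 of the 34 genes (55.9%, against 24.3% of all tested genes) and replicate 2 for 13 (38.2%, against 22.0%), and 13 genes passed in both. With 1 library behind each of these folds there is no replicate check.

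The order of the genes also differed between the resistant libraries. In replicate 1 the folds over the untreated mean were 7.23 for HERPUD1, 4.47 for HSPA5, 4.03 for DNAJB9, 3.66 for SEC24D, 3.57 for XBP1 and 3.52 for HSP90B1. In replicate 2 SEC24D led with 4.02, followed by DNAJB9 with 3.04 and HERPUD1 with 2.81, while HSPA5 was at 1.94 and HSP90B1 at 1.98. SEL1L (2.77 and 2.45) and HYOU1 (2.7 and 2.07) were closer in the 2 libraries, and SDF2L1 was nearly equal in them (0.48 and 0.47). MANF and CRELD2 were at 2.31 and 1.87 in replicate 1 and at 0.78 and 0.97 in replicate 2. Only replicate 2 carries the AMG511 tag, and the part of that in the difference was not tested.

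**Figure D3:**
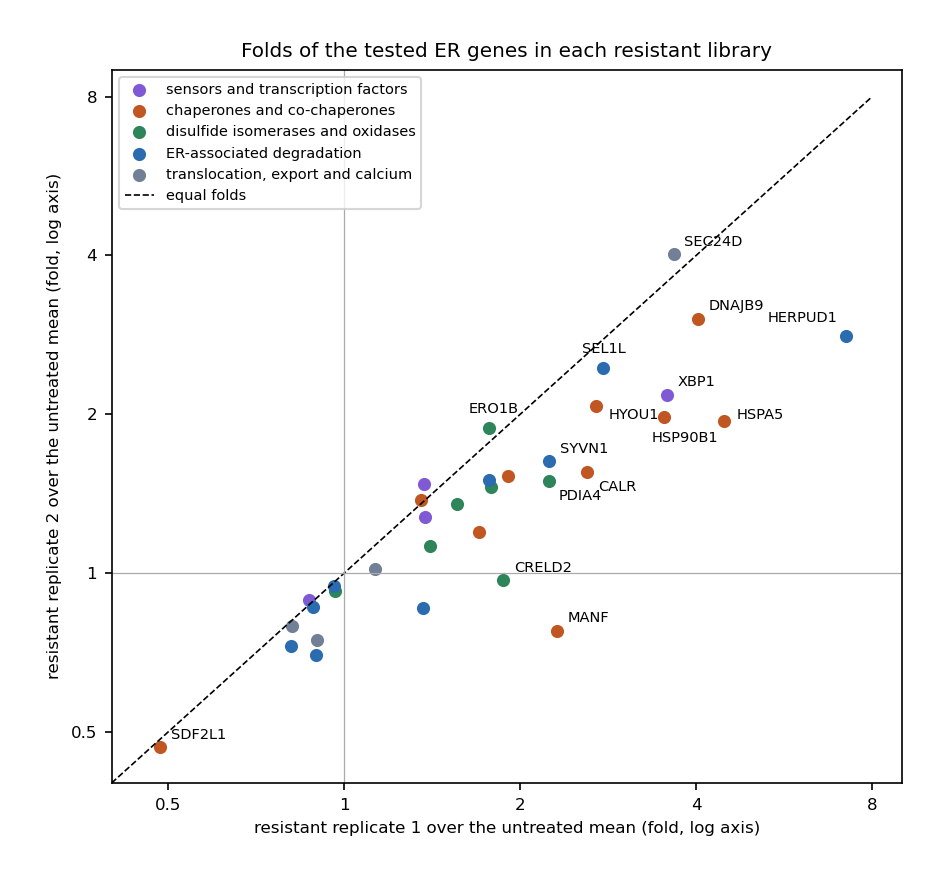
Fold of each of the 34 tested genes over the untreated mean in resistant replicate 1 (horizontal) and resistant replicate 2 (vertical), both on log axes, coloured by role, with a dashed line of equal folds. Most points lie under the line, HERPUD1 (7.23 and 2.81) and MANF (2.31 and 0.78) far under it, and SEC24D (3.66 and 4.02) lies above it.

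Levels of different genes were compared as CPM per kilobase of the median annotated transcript. CANX, P4HB, CALR and HSP90B1 were highest in the untreated libraries, with means of 1605, 862, 731 and 499 CPM per kilobase, and HSPA5 stood at 127. In the resistant libraries these means were 2190 for CANX, 1395 for P4HB, 1519 for CALR, 1372 for HSP90B1 and 406 for HSPA5. The same 4 genes led in the untreated libraries when the longest transcript was used, but their order changed, with CALR first at 351 and CANX at 223, and in the resistant libraries HSPA5, at 406, then stood above P4HB (306.0) and CANX (304), behind CALR (729) and HSP90B1 (541). The order and, in the resistant libraries, the leading 4 thus depend on the length chosen. At the low end ERN1 went from 2.86 to 3.79 and DNAJB9 from 3.08 to 10.9 CPM per kilobase.

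The promoter element was common in the set. Of the 35 genes 31 had a promoter in the RefSeq table, which holds 250 bases before to 50 bases after each start (none was read for PDIA3, DERL1, DERL3 and SEC24D). An exact match to either form of the ER stress response element was in 11 of the 31 (35.5%), against 44 of all 27305 genes in the table (0.161%). The form with 9 bases between its outer parts was in XBP1, HSPA5, HSP90B1, CALR, CANX, PDIA6, ERO1B and CRELD2 (25.8% of the 31, against 0.0916%), and the form with 1 base between them in HYOU1, SDF2L1 and HERPUD1 (9.68%, against 0.0696%). The form with 9 bases was first described in promoters of HSPA5, HSP90B1 and CALR, so its presence there is background and not evidence from these data. The same limit holds for the form with 1 base in HYOU1, SDF2L1 and HERPUD1. The set was listed from known genes of ER folding, degradation and the UPR. The motif TGACGTGG, the unfolded protein response element, was in HYOU1 alone (3.23%, against 0.927%), where it overlaps one of the element matches, and the core CCACG was in 23 (74.2%, against 42.1%).

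The mRNAs behind these promoters did not all move one way. Of the 11 genes with a match, 7 rose (XBP1, HSPA5, HSP90B1, CALR, ERO1B, HYOU1 and HERPUD1), SDF2L1 fell, and CANX, PDIA6 and CRELD2 did not pass the test, with a median log2 fold change of 1.06. Those higher and lower were 63.6% and 9.09% of the 11. Of the 20 genes with a promoter and no match, 7 rose and 0 fell (35% and 0%), with a median of 0.46. Of all 11123 tested genes with a promoter there, 17.6% rose and 19.3% fell. The difference between the genes with and without a match was not tested. The promoter window of CRELD2 overlaps that of ALG12, a mannosyltransferase gene on the opposite strand whose promoter is not printed here. Both windows hold a match. ALG12 was at 19.3 and 20.5 CPM in the untreated and 45.2 and 34.9 CPM in the resistant libraries, a log2 fold change of 1.01 (adjusted p = 0.00323, SE 0.19), next to the 0.51 of CRELD2. Exons of CRELD2 and ALG12 also overlap, so their values may share reads.

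Exons of some members overlap another tested gene, and the strand setting of the counting is not given in the sources used here, so values of HSP90B1, DNAJB9, DNAJB11, PDIA3, PDIA6, CRELD2, SYVN1, DERL1, DERL2 and SEC61A1 may hold reads of a neighbour. Without them, 12 of 24 genes were higher and 1 was lower, with a median log2 fold change of 0.66. SYVN1 overlaps the more highly counted FAU on the same strand and MRPL49 on the other, and neither of these was called. DNAJB9 overlaps THAP5, which was not called, and PNPLA8, which rose by 0.81 on the log2 scale (adjusted p = 0.0089), and both of these had more counts than DNAJB9 in the untreated libraries.

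The PERK branch is not part of the set. The 15 tested genes of the integrated stress response had a median log2 fold change of 0.50. Of these 15, 1 fell (6.67%, against 17.4% of all tested genes) and 7 rose (46.7%, against 16.6%). This count was 4 without untreated replicate 2. NUPR1, a stress-induced nuclear protein, was at 1.95 and 3.21 CPM in the untreated and 162 and 78.9 CPM in the resistant libraries (log2 fold change 5.54, adjusted p = 9.6e-04, SE 0.48). ATF3, a transcription factor induced below ATF4, was at 3.06 and 2.94 CPM and at 46.5 and 24.5 CPM (3.56, adjusted p = 8.03e-05, SE 0.32). Like HSPA5 and HERPUD1, both were higher in resistant replicate 1 than in replicate 2. EIF2S1, which encodes the eIF2α subunit that PERK phosphorylates, fell from 162 and 116 CPM to 66.9 and 68.7 CPM (log2 fold change -1.03, adjusted p = 0.00228, SE 0.18). Other genes of this list, chosen after their values were seen, did not pass the test. EIF2AK3, the gene of PERK (0.44, adjusted p = 0.120), PPP1R15B (0.42, 0.0808), TRIB3 (0.43, 0.473) and ASNS (0.32, 0.132) did not pass the test. Nor did SESN2 (0.03, 0.931) and CEBPG (0.07, 0.828). ATF4, the highest per kilobase of those not called, was at 300.5 and 265 CPM and at 464 and 337 CPM (0.50, adjusted p = 0.0637). It was called without resistant replicate 2 (0.71, adjusted p = 0.0160) and with upper-quartile scaling, no filter, the stricter filter or DESeq2 (adjusted p between 0.0344 and 0.0473). Chosen after its values were seen, DDIT3 (CHOP), the death-linked factor below ATF4, was at 8.56 and 6.84 CPM and at 103 and 44.7 CPM (3.26, adjusted p = 0.00358, SE 0.43), with exons that overlap MARS1, and its call was lost without untreated replicate 1 (adjusted p = 0.125) or untreated replicate 2 (0.140).

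Other ER folding factors, 37 tested, included 13 that rose and 3 that fell, with a median of 0.21, and the 13 became 7 without untreated replicate 1 and 8 without resistant replicate 1. With all libraries, the 13 and 3 were 35.1% and 8.11% of the 37, against 16.6% and 17.4% of all tested genes. GANAB, the catalytic subunit of glucosidase II that feeds glycoproteins to CALR and CANX, was at 380.4 and 405 CPM in the untreated and 747 and 717 CPM in the resistant libraries (0.90, adjusted p = 0.00226, SE 0.16). PDIA5, a further isomerase, was at 38.9 and 34.2 CPM and at 83.9 and 76.6 CPM (1.14, adjusted p = 6.72e-04, SE 0.16). The membrane thioredoxins TMX1 and TMX4 fell, by 1.14 (adjusted p = 0.00168, SE 0.19) and 0.76 (adjusted p = 0.00797, SE 0.17) on the log2 scale, and TMX1 went from 77.3 and 57.4 CPM to 27.7 and 33.3 CPM. MLEC (malectin), an ER lectin that binds glucosylated glycans, was the highest of those not called per kilobase of the median transcript (0.25, adjusted p = 0.252). With the longest transcript MLEC was at 53.2 and 63.3 CPM per kilobase in the untreated and resistant libraries. PPIB, also not called, was then higher, at 208 and 237.

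Of 25 other ERAD factors 5 rose and 1 fell (20% and 4%, against 16.6% and 17.4% of all tested genes, median 0.07). MAN1B1, a mannosidase, was at 91.3 and 99.8 CPM and at 185 and 163 CPM (0.86, adjusted p = 0.00273, SE 0.16), and FAF2, which recruits VCP to the ER, was at 219 and 198 CPM and at 100.4 and 124 CPM (-0.90, adjusted p = 0.00306, SE 0.17). VCP itself did not pass the test (-0.43, adjusted p = 0.0956), but did without untreated replicate 2 (-0.64, adjusted p = 0.0383). Of 25 translocon and N-glycosylation genes 5 rose and 2 fell (20% and 8%, against 16.6% and 17.4% of all tested genes, median -0.06). OSTC, a subunit of the oligosaccharyltransferase, was at 49.0 and 41.3 CPM and at 114 and 101 CPM (1.25, adjusted p = 4.54e-04, SE 0.16), and TRAM2 rose by 0.66 (adjusted p = 0.00895). Those that fell were SEC11C, at 27.1 and 23.1 CPM and then 7.8 and 10.2 CPM (-1.48, adjusted p = 0.00111, SE 0.23), and SPCS3, at 74.8 and 67.0 CPM and then 37.7 and 37.1 CPM (-0.92, adjusted p = 0.00182, SE 0.16). Both encode subunits of the signal peptidase complex, of which SPCS1 (-0.40, adjusted p = 0.0796), SPCS2 (-0.01, adjusted p = 0.958) and SEC11A (-0.37, adjusted p = 0.0872) did not pass the test. These 3 were chosen after their values were seen. RPN2, also of the oligosaccharyltransferase, did not pass the test (-0.36, adjusted p = 0.106).

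Of 23 COPII and cargo receptor genes 5 rose and 3 fell (21.7% and 13%, against 16.6% and 17.4% of all tested genes, median 0.18). TFG, which organises ER exit sites, was at 93.1 and 81.9 CPM and at 180.3 and 168 CPM (0.99, adjusted p = 0.00131, SE 0.16), and KDELR3, a receptor that returns escaped chaperones to the ER, was at 13.9 and 17.4 CPM and at 58.7 and 36.0 CPM (1.60, adjusted p = 0.00143, SE 0.25). The cargo lectin LMAN2 and the coat subunit SEC23B fell, by 0.61 (adjusted p = 0.0128) and 0.59 (adjusted p = 0.0175) on the log2 scale, and SEC23A did not pass the test (-0.26, adjusted p = 0.233). Both falls missed the threshold without untreated replicate 1 (adjusted p = 0.0871 and 0.137), as did that of LMAN2 without resistant replicate 1 (0.0908) and that of SEC23B without resistant replicate 2 (0.0743). Of 10 other sensors, proteases and ER-membrane factors 1 rose and 2 fell (10% and 20%, against the same shares of all tested genes, median 0.04). The 1 that rose was CREB3L1 (OASIS), a relative of CREB3L2 that drives secretory genes, at 10.8 and 18.4 CPM and then 115 and 66.8 CPM (2.64, adjusted p = 0.00248, SE 0.35). CREB3L4 and CREB3L3 fell, by 1.02 (adjusted p = 0.0300) and 1.43 (adjusted p = 0.0390), and TMBIM6 did not pass the test (0.04, adjusted p = 0.868). These 2 falls missed the threshold without untreated replicate 2 (adjusted p = 0.173 and 0.246) and without resistant replicate 2 (0.0564 and 0.141), that of CREB3L4 also without resistant replicate 1 (0.0797), and that of CREB3L3 also with upper-quartile scaling (0.0540).

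Of 13 genes of ER calcium handling and stress-linked death 2 rose and 0 fell (15.4% and 0%, against 16.6% and 17.4% of all tested genes, median 0.32). STIM1, the calcium sensor of the ER membrane, was at 30.1 and 34.5 CPM and at 65.7 and 66.5 CPM (1.03, adjusted p = 0.0012, SE 0.16). BBC3 (PUMA), a death-promoting BCL-2 relative, was at 11.6 and 12.2 CPM and at 35.6 and 15.4 CPM and passed narrowly (1.10, adjusted p = 0.04996, SE 0.36), while BAX did not (-0.09, adjusted p = 0.733). The call of BBC3 was lost with RLE scaling, with limma-voom and without untreated replicate 1, untreated replicate 2 or resistant replicate 1, where its log2 fold change was 0.38 (adjusted p between 0.0501 and 0.411). Over all 148 tested genes of these lists 38 were higher (25.7%, against 16.6%) and 12 were lower (8.11%, against 17.4%), with a median log2 fold change of 0.15. Exons of EIF2S1, PDIA5 and KDELR3 also overlap another tested gene. GANAB, CREB3L1 and STIM1 lie on chromosome 11 and ATF4 and KDELR3 on chromosome 22, whose medians over protein-coding genes were 0.42 and 0.46. Of the genes that fell, FAF2 and LMAN2 lie on chromosome 5 (median -0.41) and TMX4 and SEC23B on chromosome 20 (-0.36). The part of these chromosome-wide shifts was not tested.

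**Figure D4:**
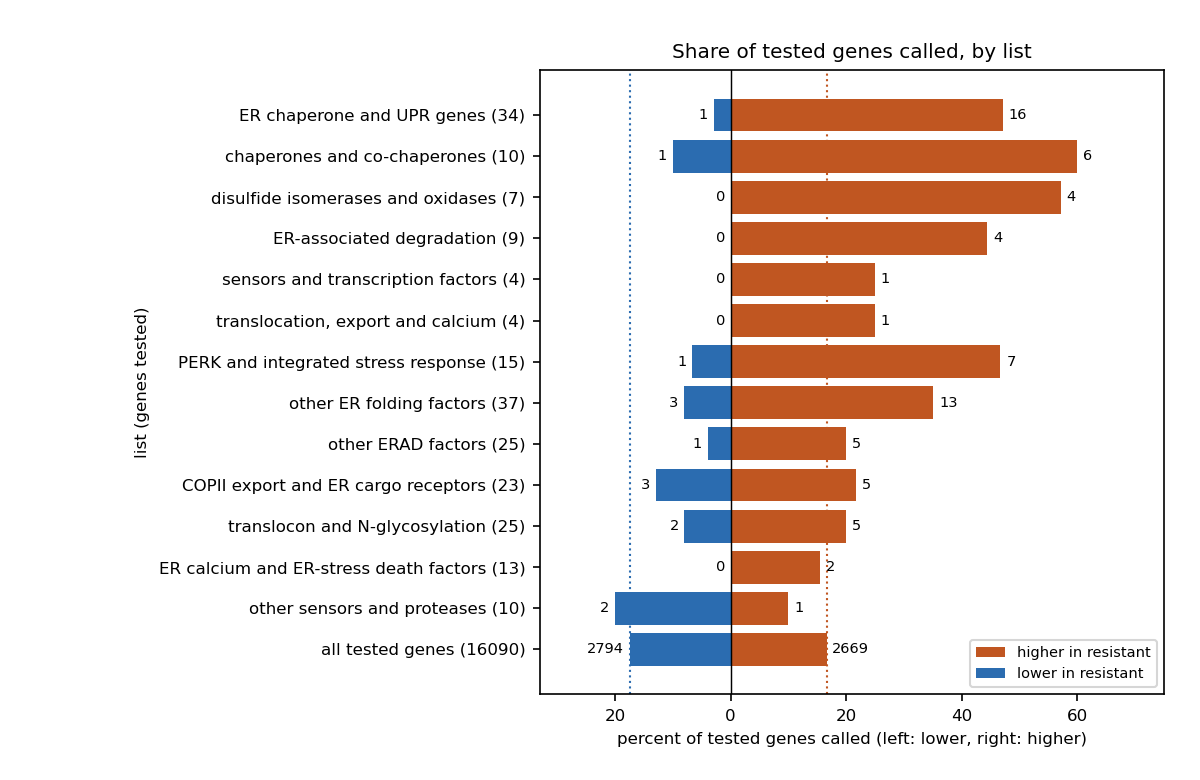
Percent of tested genes called higher (right, orange) and lower (left, blue) in the resistant libraries for the ER chaperone and UPR genes, their roles, the other lists and all tested genes, with the number of genes called at each bar and dotted lines at the shares of all tested genes (16.6% and 17.4%). The bar of the 34 ER genes reaches 47.1% to the right and 2.94% to the left.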

How the data were processed

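Bulk polyA RNA-seq was analysed in 4 libraries, 2 untreated and 2 AMG510-resistant. The deposited tables hold expected counts per Ensembl gene, per the file headers, and 93.6% of the values are whole numbers. The submitters' processing notes list STAR 2.7.2b, RSEM 1.3.1 and GRCh37. The annotation and the strand setting are not given in the sources used here.

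Expected counts were rounded, and genes were filtered with filterByExpr (16090 kept), scaled with TMM and tested with edgeR 4.0.16 (R 4.3.3), with glmQLFit (robust, legacy form) and glmQLFTest, adjusted over all tested genes and called at an adjusted p below 0.05. The SE is the size of the log2 fold change divided by the square root of F. CPM uses library totals of 30146559 to 38052558 counts, each scaled by its TMM factor, with a common biological coefficient of variation of 19.6%. The script was tested on simulated data. Transcript lengths came from GENCODE 29, and promoters from RefSeq (GRCh38.p14), matched by symbol.

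The members and lists were chosen with earlier results of these data known. All members are named. From each other list come the 2 called genes with the smallest adjusted p in each direction. The gene not called with the highest level per kilobase of the median annotated transcript is named too. A gene that this rule picks is not reported here. SEC22B and the marker PECAM1 matched no ID. The alternatives tried were upper-quartile or RLE scaling, leaving out the filter, a filter of at least 1 CPM in 2 libraries, the newer quasi-likelihood form, a replicate block, DESeq2 1.42.0, limma-voom 3.58.1, a threshold of 0.01 and leaving out each library. Leaving out members that overlap a tested gene was added after the data were seen.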

Additional observations from a re-analysis of the deposited data

How the results depend on the processing

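The count of 16 higher genes lay between 16 and 19 with RLE or upper-quartile scaling, no filter, the stricter filter, the newer quasi-likelihood form, DESeq2 and limma-voom, and between 11 and 19 with 1 library left out. At a threshold of 0.01 it was 10, and over all tested genes 1444 were then higher and 1388 lower. Without untreated replicate 1, 1510 and 1322 of all tested genes were called, and the lower count of the set was between 0 and 1 over the left-out libraries, 0 without untreated replicate 1. The median log2 fold change was between 0.46 and 0.79 with 1 library left out, highest without resistant replicate 2. XBP1, HSP90B1, HYOU1, DNAJB9, DNAJC3, SEL1L, SYVN1 and SEC24D kept their call under every setting. At 0.01, 6 of the 13 other ER folding factors stayed past the threshold, as did 2 of the 5 other ERAD factors, 2 of the 5 translocon genes, 3 of the 5 COPII genes and 1 of the 2 calcium and death genes called higher, and none of the 3 COPII genes and 2 sensors called lower. With 1 library left out, the higher count was between 2 and 5 for other ERAD factors and for translocon genes, and the lower count between 0 and 2 for COPII genes and for sensors. The higher count of calcium and death genes then lay between 1 and 4, and it was 4 with no filter and 1 with RLE scaling or limma-voom. For other sensors the higher count was 2 with RLE or upper-quartile scaling, either other filter or DESeq2, and the lower count was 1 with upper-quartile scaling. Single genes were followed through the settings only for the members, the genes picked by the naming rule, DDIT3, ALG12, EIF2A, SERP1, GYS1 and RUVBL2. Among these, 8 genes that were not called changed sign with 1 library left out. MANF ranged from -0.35 to 1.21, ERO1A from -0.27 to 0.14, CRELD2 from -0.030 to 0.90 and EDEM3 from -0.14 to 0.016. SELENOS ranged from -0.20 to 0.45, SEC61A1 from -0.090 to 0.33, TMBIM6 from -0.060 to 0.15 and BAX from -0.25 to 0.11. The cause was not tested. A lone library in an arm is assumed to vary like the other arm.

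The sample titles give replicate numbers and do not say whether same-numbered libraries were handled together. Over 16090 genes the deviations of same-numbered libraries correlated at -0.06. Within the set, replicate 1 was the higher library for 29 of 34 genes in the resistant and 24 in the untreated group. Whether the groups share a replicate effect in this set was not tested. With the replicate block 18 genes were higher and 1 was lower, with a median of 0.53. CANX, DNAJB11 and ATF4 were then called (adjusted p = 0.0463, 0.0249 and 0.0416), and BBC3 and CREB3L3 were not (0.0542 and 0.0779). With 2 libraries a group, small changes in genes such as SDF2L1 and ERN1, at under 20 CPM, are poorly resolved, and counting error is larger there. RLE and upper-quartile scaling moved the median of all genes from -0.01 to 0.00 and 0.01.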

Other observations

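Outside the set, 33 genes in the RefSeq table carried a match to either form of the ER stress response element, and 20 of them were tested. This group was formed after the data were seen, so its counts are a description with no test. Of the 20, 10 were higher in the resistant libraries, 2 were lower and 8 did not pass the test, with a median log2 fold change of 0.71, whereas of 11123 tested genes with a promoter there, 1962 were higher (17.6%) and 2146 lower (19.3%), with a median of -0.03. Of the higher genes, NAV2, RAD9A, TRIM5 and ZNF143 lie on chromosome 11 and ALG12 on chromosome 22. Those chromosomes had median log2 fold changes of 0.42 and 0.46 over protein-coding genes, and the part of this in the rises was not tested. The other higher genes, EIF2A and SERP1 among them, lie on other chromosomes. Some of the genes with a match lie on opposite strands with overlapping promoter windows, so their matches cannot be counted as independent. EIF2A and SERP1 are such a pair, and both rose, EIF2A by 0.94 (adjusted p = 0.00258) and SERP1, a translocon-associated stress protein, by 0.53 (adjusted p = 0.0438). The call of SERP1 was lost without untreated replicate 2 (adjusted p = 0.244) and without resistant replicate 1 (0.230). GYS1 and RUVBL2 are another, where GYS1 did not pass the test (log2 fold change -0.38) and RUVBL2 fell by 0.65 (adjusted p = 0.0128), a call lost without untreated replicate 1 (0.118) and without resistant replicate 1 (0.0823).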
